A study of Mus musculus with 30 samples.

Results

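Tumours grown from B2m knockout cells were compared with tumours grown from Jak1 knockout cells, both from mice given the control antibody, across all expressed genes. The members were picked by library title: the 5 libraries titled B2mKO_IgG1 and the 5 titled Jak1KO_IgG1, so 10 of the 30 libraries of the series. All tumours came from MC38, a mouse colon carcinoma line, injected under the skin of female C57BL/6 mice aged 6 to 8 weeks. The B2mKO group carried a loss-of-function mutation in B2m, the Jak1KO group one in Jak1, and the WT group, used below as a reference, neither. Mice in these 3 groups received 100 µg of an IgG1 isotype control intravenously on days 7, 10 and 13, and about 50 mg of tumour was taken on day 14. The matching groups with the antibody against PD-1 (aPD1) entered the shared estimate of spread behind the tests, and the same difference with aPD1 is given beside some results. The labels do not say whether a knockout line was 1 clone or a pool, nor whether any mouse gave more than 1 library, so the p-values measure the spread between these libraries, which may be technical. The mutated genes are those of the injected cells, and host cells in the tumour piece are not stated to carry either mutation.

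B2m encodes beta-2-microglobulin, the light chain that MHC class I heavy chains need to reach the cell surface with a peptide for CD8 T cells. Jak1 encodes a kinase bound to the receptors of both type I and type II interferon, as well as to several cytokine receptors; it phosphorylates STAT proteins, which then switch on interferon-stimulated genes, the class I genes among them. Loss of either gene is a known route by which tumour cells escape T cells, the first by removing the antigen display itself and the second by removing the response to interferon.

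The interferon response runs through short promoter elements, and 4 promoters are shown because they carry these elements and their genes differed between the knockouts. Ifih1 encodes an RNA sensor, Ifit1 an inhibitor of viral translation and Gbp7 a guanylate-binding GTPase. Each window runs from 250 bases before to 50 bases after the annotated start, taken from RefSeq on GRCm38.p6 and written 5′ to 3′ on the gene's strand. Capitals mark matches, on either strand, to GAAANNGAA, a core of the interferon-stimulated response element (ISRE), or to TTCNNNGAA, the gamma-activated site (GAS).
Ifih1, chr2:62646206-62646505, minus strand: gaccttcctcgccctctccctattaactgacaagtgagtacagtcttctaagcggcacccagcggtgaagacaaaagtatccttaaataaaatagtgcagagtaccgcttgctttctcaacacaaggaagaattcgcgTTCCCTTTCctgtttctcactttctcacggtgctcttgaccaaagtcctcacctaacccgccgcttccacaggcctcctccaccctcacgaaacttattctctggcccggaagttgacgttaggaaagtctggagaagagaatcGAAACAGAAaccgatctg
Ifit1, chr19:34640639-34640938, plus strand: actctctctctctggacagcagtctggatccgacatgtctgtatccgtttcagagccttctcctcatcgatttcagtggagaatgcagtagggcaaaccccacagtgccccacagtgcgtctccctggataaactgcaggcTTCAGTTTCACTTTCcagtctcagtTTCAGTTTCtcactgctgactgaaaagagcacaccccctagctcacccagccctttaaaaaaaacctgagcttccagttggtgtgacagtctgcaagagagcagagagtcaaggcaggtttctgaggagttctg
Gbp7, chr3:142530086-142530385, plus strand: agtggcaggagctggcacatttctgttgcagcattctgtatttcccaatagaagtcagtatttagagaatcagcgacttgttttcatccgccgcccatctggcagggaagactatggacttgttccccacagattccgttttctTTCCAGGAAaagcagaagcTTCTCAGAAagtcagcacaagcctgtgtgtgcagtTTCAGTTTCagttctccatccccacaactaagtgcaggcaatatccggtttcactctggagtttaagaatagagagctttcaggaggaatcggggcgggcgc
B2m, chr2:122147437-122147736, plus strand: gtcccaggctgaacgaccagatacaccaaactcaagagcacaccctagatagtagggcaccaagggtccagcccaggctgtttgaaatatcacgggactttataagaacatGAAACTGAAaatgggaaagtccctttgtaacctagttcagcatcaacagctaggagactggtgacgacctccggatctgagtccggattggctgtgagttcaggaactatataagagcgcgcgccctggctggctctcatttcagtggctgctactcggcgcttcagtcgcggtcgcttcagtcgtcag
The Ifit1 window held 3 ISRE cores, of which a pair shares bases, Ifih1 held 2, and Gbp7 held 1 core and 2 GAS matches with no overlap between both motifs. The B2m window held 1 core and no GAS match. Of the 11025 tested genes with a window in the table, 9.04% held an ISRE core and 8.25% a GAS match. Among windows of genes higher in B2mKO these shares were 13.3% and 8.67%, and among those lower in B2mKO they were 8.21% and 8.03%. In the list of type I interferon response genes used below, 16 of the 23 members with a window held the core (69.6%), and in the interferon gamma list 14 of 21 did (66.7%). A GAS match was held by 4 of the 23 (17.4%) and by 8 of the 21 (38.1%). These are matches of letters in a window and were not tested for binding.

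Gene counts summed to between 18599575 and 25944701 in the B2mKO libraries and between 17629795 and 23482943 in the Jak1KO libraries. The first principal component of the 10 libraries held 51.3% of the variance and separated the groups without overlap, while the second (17.0%) set B2mKO replicate 5 apart from the rest. The 10 highest genes of each library took 6.61% to 9.45% of the counts in B2mKO and 5.36% to 5.92% in Jak1KO. Markers of skeletal muscle summed to 330.3 CPM (counts scaled to library size) in B2mKO replicate 5 and 216 CPM in Jak1KO replicate 3, against 6.00 to 10.0 CPM in the other 8 libraries. The defining markers of colon epithelium were near 0 in both groups: Cdx2 had no count, and Epcam, Krt8, Krt18, Krt20 and Vil1 each averaged under 1 CPM. The exception was the epithelial cadherin Cdh1, at 7.62 ± 2.47 CPM in B2mKO and 3.07 ± 1.01 CPM in Jak1KO (mean ± SD, n = 5 per group here and below). In tissue pieces such as these, fewer cells of a type and less RNA per cell cannot be told apart.

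Of 15505 genes tested, 2217 were higher in B2mKO than in Jak1KO (14.3%) and 2145 were lower (13.8%) at an adjusted p under 0.05 (edgeR quasi-likelihood test with Benjamini-Hochberg adjustment over all genes, used for every adjusted p here). Large differences were mostly in one direction: 790 genes were at least 2-fold higher and 284 at least 2-fold lower, and at 4-fold the counts were 285 and 106. The 5 and 5 libraries did not overlap at all for 3406 of the called genes. The median log2 fold change over all tested genes was -0.02, and values are given as fitted. The count of higher genes is 3392 when WT replicate 3 with IgG1 and B2mKO replicate 2 with aPD1, neither of which is in the comparison but both of which enter the shared estimate of spread, are left out.

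**Figure D1:**
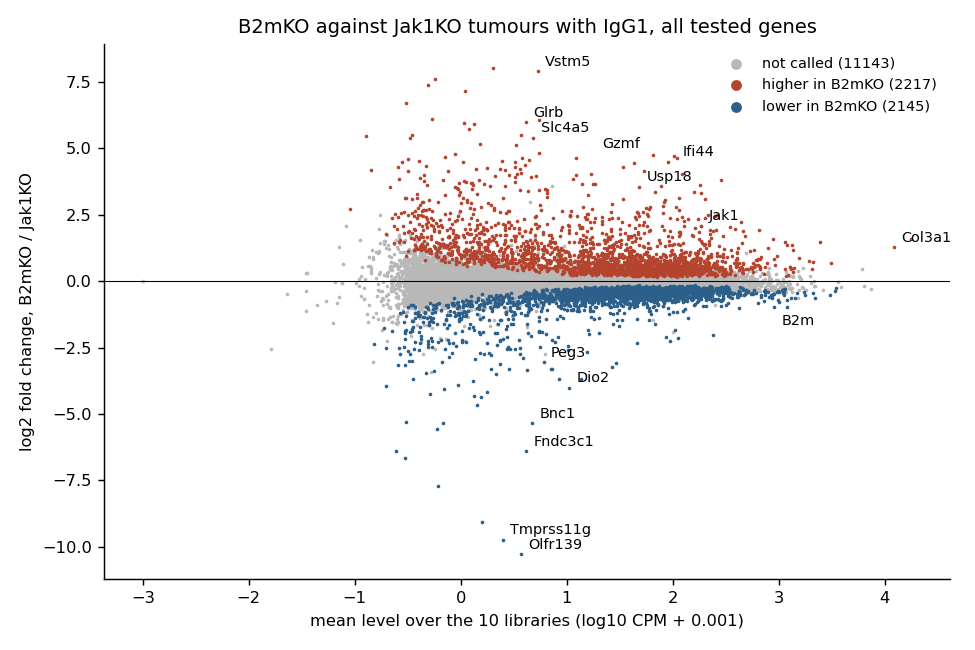
Each point is 1 of the 15505 tested genes, with the mean level over the 10 libraries on the x axis (log10 of CPM + 0.001) and the fitted log2 fold change of B2mKO over Jak1KO on the y axis; red points were called higher and blue points lower. Points far from 0 are more frequent above the line than below it, and the fitted values of genes with no count in one group, such as Olfr139 and Tmprss11g, depend on the prior count and are no measure of size.

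The targeted genes came first. B2m (chromosome 2, 122147686 to 122153083, GRCm38) stood at 501, 509.9, 707, 621 and 747 CPM in the B2mKO libraries (replicates 1 to 5) and 1099, 1219, 1136, 1338 and 1230.5 CPM in the Jak1KO libraries. No B2mKO library reached the lowest Jak1KO library, and both groups lay below the WT mean of 3089.6 ± 911 CPM. The difference was -0.96 ± 0.19 (log2 fold change ± SE, adjusted p = 2.30e-04). Jak1 (chromosome 4, 101152367 to 101265282) stood at 320.0, 323, 298, 296 and 276 CPM in B2mKO and 72.7, 68.7, 74.3, 77.2 and 64.4 CPM in Jak1KO. The groups were far apart, by 2.08 ± 0.10 (adjusted p = 7.47e-14), and the B2mKO libraries lay above the WT mean of 232 ± 28.7 CPM. Each knockout group was thus the lower one for its own gene. The reads cover whole genes and the edited positions are not given in the labels, so these levels check the direction of the labels and not the protein.

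The clearest group difference was in interferon-stimulated genes. All 31 tested members of the type I interferon response list were higher in B2mKO, with a median log2 fold change of 2.58 and no overlap between libraries for any of them, where 29.1% of all tested genes did not overlap in either direction, and 31 remained called whichever of the 10 libraries was left out. Ifi44, a gene induced by type I interferon, stood at 251, 237, 122, 197 and 177 CPM in B2mKO and 8.15, 7.99, 7.29, 5.68 and 7.86 CPM in Jak1KO. The lowest B2mKO library, replicate 3, lay far above the highest Jak1KO library, and the difference was 4.73 ± 0.33 (adjusted p = 1.87e-11). Rsad2, which encodes the antiviral enzyme viperin, stood at 798, 484, 327, 633 and 456 CPM in B2mKO and 20.3, 56.6, 40.4, 41.2 and 32.7 CPM in Jak1KO. Its difference was 3.82 ± 0.29 (adjusted p = 8.02e-11), with B2mKO replicate 3 the lowest of its group. The ubiquitin-like modifier Isg15 was higher by 3.13 ± 0.27, the translation inhibitor Ifit1 by 3.35 ± 0.23, the RNA sensor Ifih1 by 2.37 ± 0.14 and the E3 ligase family member Herc6 by 2.47 ± 0.17. B2mKO replicate 3 was the lowest of its group in the summed level of this list as well, at 4050.2 CPM, while the Jak1KO libraries ran only from 890.5 to 1002 CPM.

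Within the pathway itself, 13 of 28 tested members of the JAK-STAT and interferon receptor list were higher and none lower, a median of 0.31. Jak1 itself is 1 of the 13. Stat2, a transcription factor downstream of the type I receptor, stood at 272, 268, 149, 261 and 206 CPM in B2mKO and 43.8, 44.1, 50.4, 44.6 and 47.5 CPM in Jak1KO. The groups were separate and differed by 2.33 ± 0.20 (adjusted p = 5.83e-10). Irf9, its DNA-binding partner, was higher by 1.99 ± 0.17, the induced transcription factor Irf7 by 2.34 ± 0.26 and Usp18, a feedback inhibitor that removes Isg15 from proteins, by 3.56 ± 0.32. The receptors and the other kinases were closer: Ifngr1 was higher by 0.39 ± 0.14 (adjusted p = 0.0308), while Ifnar1 (0.13 ± 0.07), Jak2 (0.13 ± 0.11) and Tyk2 (0.26 ± 0.15) did not pass the threshold.

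Among interferon gamma response genes, 25 of 34 were higher and 2 lower, with a median of 1.37. Gbp3, a guanylate-binding protein that acts on vacuoles of intracellular microbes, stood at 398, 339, 266, 357 and 323 CPM in B2mKO and 39, 26.6, 28.4, 26.2 and 46.6 CPM in Jak1KO. The groups did not overlap and differed by 3.34 ± 0.28 (adjusted p = 3.84e-10). Gbp7 was higher by 2.26 ± 0.19, Gbp9 by 2.09 ± 0.18 and the immunity-related GTPase Irgm2 by 2.80 ± 0.26. These families hold near-identical copies whose shared reads were not counted, so the split between copies is uncertain. Both members that were lower, Gbp2b (-4.37 ± 1.55, adjusted p = 0.0347) and the class II transactivator Ciita (-1.99 ± 0.71, adjusted p = 0.0365), overlapped between the groups. Gbp2b stood at 0.115, 0.0432, 0.234, 0.159 and 0.142 CPM in B2mKO and 5.64, 0.45, 1.41, 0.138 and 7.19 CPM in Jak1KO, and replicates 1, 3 and 5 of Jak1KO were high while replicate 4 lay inside the B2mKO range. The count of 2 lower genes was 0 without any one of B2mKO replicates 1, 2 and 4 or Jak1KO replicates 1 and 5, and 0 by limma voom and with a replicate block.

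**Figure D2:**
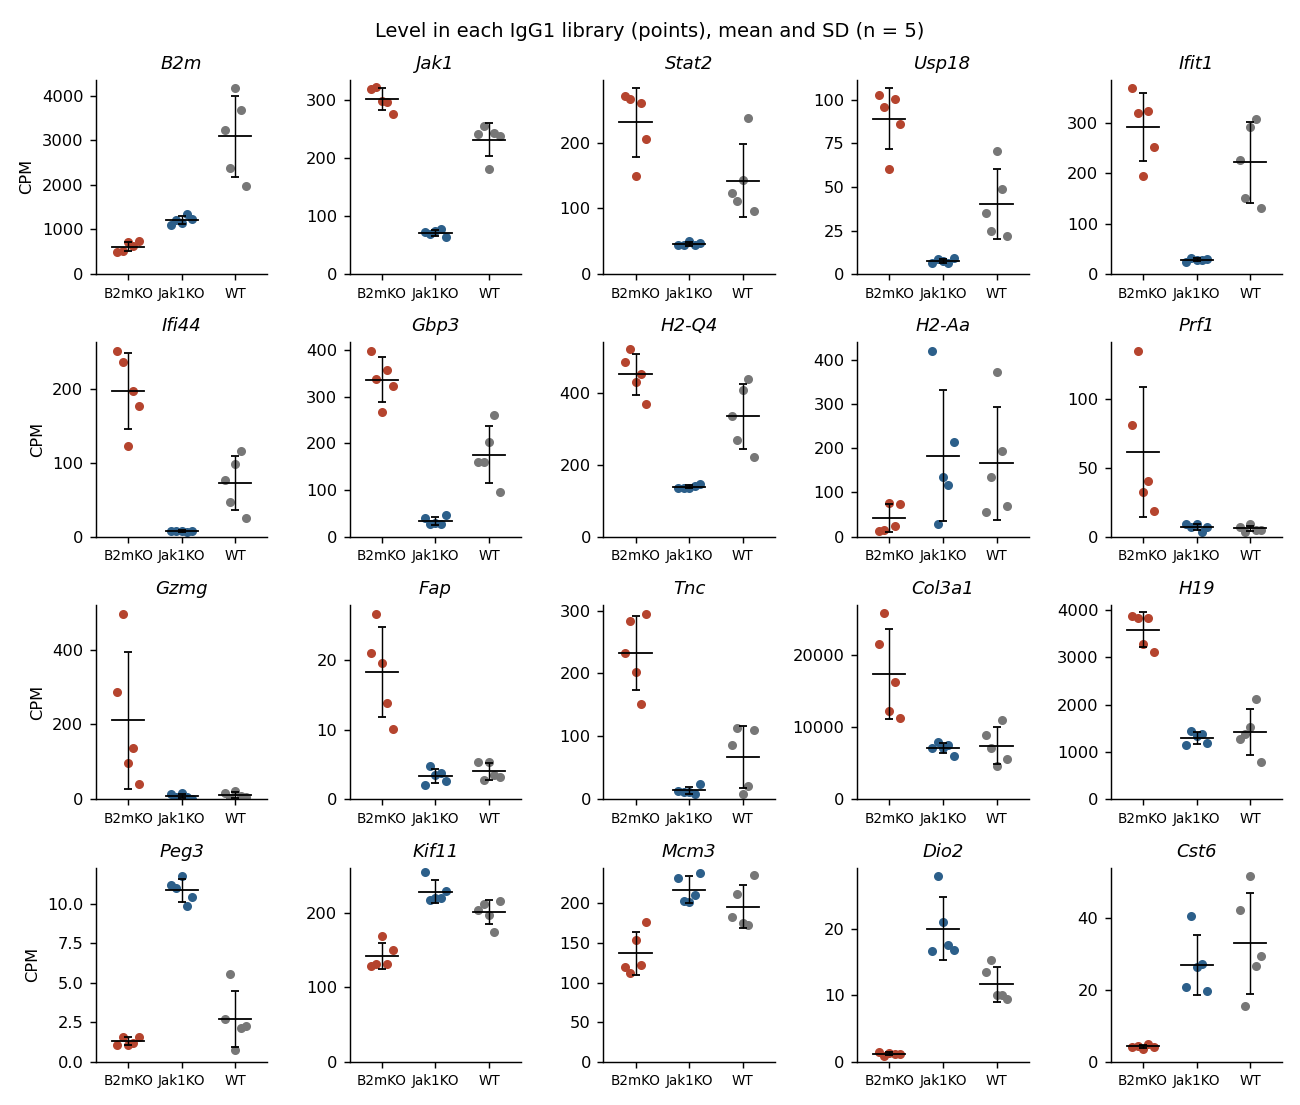
Level of 20 genes in each IgG1 library, in CPM on a linear axis from 0, for B2mKO (red), Jak1KO (blue) and WT (grey); the long bar is the mean and the whiskers are 1 SD (n = 5). The interferon-stimulated genes Stat2, Usp18, Ifit1, Ifi44 and Gbp3 are low and tightly grouped in Jak1KO, whereas H2-Aa overlaps and Prf1 and Gzmg vary widely within B2mKO.

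The class I antigen display genes followed with smaller differences: 21 of 26 were higher in B2mKO and 1, B2m itself, was lower, with a median of 0.68. The classical heavy chain H2-K1 stood at 2020.4, 2271, 1748, 1978 and 1635 CPM in B2mKO and 711, 747, 731, 778 and 777 CPM in Jak1KO, and no libraries overlapped. It was higher by 1.37 ± 0.18 (adjusted p = 1.36e-06) and H2-D1 by 1.17 ± 0.20. The peptide transporter subunit Tap1 was higher by 1.06 ± 0.16, the loading chaperone Tapbp by 1.16 ± 0.13 and the immunoproteasome subunit Psmb9 by 1.29 ± 0.27. Non-classical H2-Q genes showed larger differences, H2-Q6 by 2.49 ± 0.22, H2-Q7 by 1.84 ± 0.22 and H2-Q4 by 1.70 ± 0.16, with the same limit on near-identical copies. Between the knockouts, B2m was thus lower in B2mKO while H2-K1, H2-D1 and these H2-Q genes were higher. Against WT, the list's median was 0.11 in B2mKO and -0.53 in Jak1KO, and B2m was lower than in WT in both knockouts. The list also holds B2m and peptide processing genes, so its median is not that of the heavy chains alone. Whether heavy chains rise with loss of B2m was not tested.

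MHC class II genes went the other way, but loosely. Of 11 tested members, 4 were lower in B2mKO and none higher, with a median of -0.82. H2-Aa, the alpha chain of the I-A molecule, stood at 13.6, 15.7, 76.7, 25.1 and 74.5 CPM in B2mKO and 418, 28.1, 136, 117 and 215 CPM in Jak1KO. Jak1KO replicate 2 lay inside the B2mKO range and replicate 1 far above all others. The difference was -2.15 ± 0.81 (adjusted p = 0.046), and the invariant chain Cd74 was lower, at -2.04 ± 0.73 (adjusted p = 0.0365). The Jak1KO libraries highest for H2-Aa, replicates 1 and 5, were also highest for Gbp2b. The count of 4 was 0 without any one of B2mKO replicates 1, 2 and 4 or Jak1KO replicates 1 and 5, was 2 without Jak1KO replicate 3, was 1 by limma voom and was 0 with a replicate block.

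Genes of cytotoxic granules were higher in B2mKO, whereas the T cell receptor complex was not. Of 20 tested cytotoxic effector genes, 11 were higher and 1 lower (median 0.95). Prf1, the pore-forming perforin, stood at 80.9, 135, 32.3, 40.2 and 18.4 CPM in B2mKO and 9.14, 7.29, 8.8, 3.6 and 7.07 CPM in Jak1KO. Its groups did not overlap, with a wide spread within B2mKO, and the difference was 3.09 ± 0.58 (adjusted p = 1.74e-04). Gzmb, the granzyme of killer lymphocytes, stood at 56.2, 93.2, 27.2, 30.2 and 28.6 CPM in B2mKO and 7.06, 5.4, 7.01, 3.37 and 8.24 CPM in Jak1KO, with a difference of 2.92 ± 0.63 (adjusted p = 7.89e-04). Gzmc (2.85 ± 0.51), Gzmd (4.49 ± 0.82), Gzme (4.31 ± 0.80), Gzmf (4.74 ± 0.88) and Gzmg (4.62 ± 0.88) were all higher too. They lie close together on chromosome 14 with Ctsg, which encodes the granule protease cathepsin G and was higher by 5.16 ± 1.02 from a low level, and these granzymes are near-copies of one another. Gzmg stood at 287, 495, 96.8, 136 and 41 CPM in B2mKO and 13.6, 7.19, 15.4, 5.45 and 1.38 CPM in Jak1KO, and the B2mKO libraries ranked in the same order for Gzmg, Gzmf and Prf1, with replicate 2 highest and replicate 5 lowest. The death ligand Tnfsf10 was higher by 2.02 ± 0.30. The 1 lower member was Ifng, the gene of interferon gamma, at 0.0573, 0.0432, 0, 0.159 and 0.0944 CPM in B2mKO and 1.48, 0.45, 0.423, 0.0923 and 1.88 CPM in Jak1KO, a difference of -3.46 ± 0.98 (adjusted p = 0.00828) with overlap between the groups. No gene of the list was lower by limma voom or when only the 10 libraries compared were fitted.

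Among 19 NK cell genes, 7 were higher, Prf1 first and the receptor Klra7 (1.78 ± 0.50) and Cd244a (1.10 ± 0.31) among them. The lineage-defining NK receptor gene Ncr1 stood at 2.18, 3.2, 2.81, 1.15 and 1.23 CPM in B2mKO and 1.42, 1.35, 1.41, 0.415 and 1.71 CPM in Jak1KO and did not pass the threshold (0.74 ± 0.44). Of 23 T cell genes, only the transcription factor Tcf7 passed (higher by 0.90 ± 0.15), and the list's median was -0.45. Without B2mKO replicate 5, 5 T cell genes were lower, without Jak1KO replicate 2 there were 2, and 2 when only the 10 libraries compared were fitted, against 0 with all libraries. Cd3e (0.229, 0.475, 0.938, 0.437 and 2.12 CPM in B2mKO and 4.27, 0.50, 1.74, 2.63 and 2.34 CPM in Jak1KO) and Cd8a (0.229, 0.777, 1.97, 0.517 and 6.33 CPM in B2mKO and 13.2, 2.15, 5.55, 5.82 and 5.77 CPM in Jak1KO) overlapped between the groups, with adjusted p of 0.0831 and 0.11. Of 20 checkpoint and exhaustion genes, 4 were higher (20.0%) and 1 lower (5.0%), with a median of -0.03. Besides Cd244a, the costimulatory receptor Tnfrsf9 was higher by 2.32 ± 0.48, the ectoenzyme Nt5e by 1.43 ± 0.22 and Cd274, the ligand of PD-1, by 0.92 ± 0.29. The lower member, the exhaustion factor Tox (-2.46 ± 0.70), overlapped between the groups. Pdcd1, Lag3, Tigit, Havcr2 and Ctla4 were among the 15 members that did not pass the threshold. Raet1e, a ligand of the NK receptor NKG2D, stood at 9.22, 9.76, 7.83, 8.5 and 8.03 CPM in B2mKO and 0.547, 0.50, 0.705, 0.415 and 0.669 CPM in Jak1KO, a difference of 3.92 ± 0.23, while Ulbp1, another ligand of that receptor, was lower (-0.52 ± 0.12).

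Of 28 macrophage and monocyte genes, 3 were higher and 1 lower (10.7% and 3.57%), below the shares of all genes. Adgre1 and Csf1r, which define macrophages, did not pass the threshold (-0.09 ± 0.23 and 0.10 ± 0.24). The 3 higher members were the nitric oxide synthase Nos2 (2.76 ± 0.47), the secreted phosphoprotein Spp1 (1.96 ± 0.35) and the scavenger receptor Msr1 (0.78 ± 0.17), and the lower one was the efferocytosis receptor Mertk (-0.60 ± 0.12). Neutrophil genes had 4 of 11 tested members higher (36.4%) and none lower (median 1.04). Of the defining markers, S100a8 (1.19 ± 0.77) and Csf3r (-0.45 ± 0.33) did not pass, and S100a9 (2.88 ± 0.93) was higher with overlap. Mmp9, Clec4e and Trem1 were the other higher members. Ly6g, Cxcr2, Mpo and Elane were among the members left out by the expression filter. Of 7 mast cell genes 2 were higher and 4 lower (median -2.44). The proteases Tpsb2 (-2.56 ± 0.53) and Cma1 (-2.95 ± 0.68) were lower, both with overlap between the groups. Cpa3 (-2.80 ± 0.66) and Mcpt4 (-2.44 ± 0.72) were lower without overlap. In the other direction, Hdc (1.02 ± 0.23) and Gata2 (1.06 ± 0.15) were higher without overlap, and Kit (0.36 ± 0.27) did not pass the threshold. The summed mast cell list was not lower in B2mKO, at 39.7 to 49.7 CPM against 22.4 to 43.9 CPM in Jak1KO. The 4 lower mast cell genes were 2 when only the 10 libraries compared were fitted. Of 28 chemokines, 8 were higher and 1 lower. Cxcl10 (1.87 ± 0.20), which attracts T cells, had the smallest p among them, and the neutrophil attractant Cxcl5 was higher by 4.79 ± 1.18 from under 5 CPM.

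Fibroblast, collagen and TGF-beta genes were higher in B2mKO, while endothelial and pericyte genes were mostly not called. Of 21 fibroblast genes 13 were higher and 1 lower (median 1.04), of 22 collagens 11 were higher and none lower (0.78), and of 22 TGF-beta ligands and targets 13 were higher and none lower (0.69). Fap, a surface protease of activated fibroblasts, stood at 21, 26.6, 19.6, 13.9 and 10.1 CPM in B2mKO and 2.02, 4.7, 3.53, 3.74 and 2.68 CPM in Jak1KO. It was higher in every B2mKO library, by 2.45 ± 0.33 (adjusted p = 2.26e-06). Col3a1, the fibrillar type III collagen, stood at 21581, 25930.4, 12223, 16231 and 11267 CPM in B2mKO and 7069, 7957, 7163, 7552 and 6043 CPM in Jak1KO, a difference of 1.29 ± 0.25 (adjusted p = 2.47e-04). The matricellular protein Tnc stood at 233, 283, 202, 152 and 295 CPM in B2mKO and 13.8, 11.3, 11.6, 9.0 and 24 CPM in Jak1KO, with a difference of 4.06 ± 0.52 (adjusted p = 8.34e-07). Fn1, the fibronectin gene, averaged 26839 ± 8791 CPM in B2mKO against 8940.4 ± 1649.5 CPM in Jak1KO (1.59 ± 0.37). Of 28 matrix glycoprotein and elastic fibre genes, 9 were higher and 3 lower. Elastic fibre genes went both ways: elastin Eln (-2.31 ± 0.58) and the microfibril gene Mfap2 (-2.54 ± 0.53) were lower, the crosslinking enzyme Loxl1 (1.63 ± 0.32) and Emilin1 (0.77 ± 0.20) higher, and the fibrillins Fbn1 (0.36 ± 0.32) and Fbn2 (1.05 ± 0.68) did not pass the threshold. Postn (2.03 ± 0.30), Aspn (2.35 ± 0.35), Nid1 (1.94 ± 0.23) and the inhibitor of DNA binding Id3 (1.76 ± 0.24) were higher too. The B2mKO libraries ranked in the same order in the summed fibroblast and cytotoxic lists, with replicate 2 at the top (33507 CPM and 2564 CPM) and replicate 5 at the bottom (14915 CPM and 910.4 CPM); the part of sampling in either was not tested. The count of higher fibroblast genes ran from 8, without B2mKO replicate 2, to 14 when single libraries were left out. Endothelial genes had 2 of 17 higher (11.8%, below the share of all genes) and pericyte genes 0 of 10 called.

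Proteases and their inhibitors, the subject of the series title, gave 45 higher and 17 lower genes of 164 tested, with a median of 0.17. Over all tested genes, 14.3% were higher and 13.8% lower. Among matrix metalloproteinases 6 of 17 were higher (35.3%) and 1 lower (5.88%). The higher ones included Mmp28 by 3.44 ± 0.35, Mmp19 by 1.48 ± 0.24, Mmp2, which cleaves basement membrane collagen, by 1.33 ± 0.22 and Mmp9, a gelatinase of neutrophils and macrophages, by 1.04 ± 0.19. Of 23 ADAM and ADAMTS genes 7 were higher (30.4%) and 4 lower (17.4%). Adamts1, a proteoglycan-cleaving enzyme, stood at 105, 77.1, 58.5, 77.4 and 67.3 CPM in B2mKO and 193, 250.1, 201, 201 and 169.8 CPM in Jak1KO and was lower (-1.40 ± 0.22). Of 16 cathepsin and legumain genes 6 were higher (37.5%) and none lower, with Ctso higher by 1.42 ± 0.19. Of 9 plasminogen activation genes 3 were higher (33.3%) and 1 lower (11.1%). The median was -0.02, and 6 of the 9 had a negative fitted change. Plat, the tissue plasminogen activator, was higher by 1.34 ± 0.16 (adjusted p = 1.90e-07), and the metalloproteinase inhibitor Timp1 by 1.26 ± 0.14. The cystatin Cst6, an inhibitor of cathepsins, stood at 4.24, 4.49, 3.56, 4.85 and 4.2 CPM in B2mKO and 20.8, 40.6, 26.5, 27.3 and 19.7 CPM in Jak1KO and was lower, at -2.65 ± 0.27 (adjusted p = 1.26e-08). The inflammatory caspases Casp1 (1.84 ± 0.20) and Casp4 (0.94 ± 0.18) were higher, as were the complement proteases C1ra (2.13 ± 0.26) and C1s1 (2.22 ± 0.37). Their lists also held falls: 4 of 17 caspase and pyroptosis genes were higher and 1 lower. Of 16 complement and coagulation genes 5 were higher and 1 lower. Membrane and cytosolic peptidases had 2 of 25 tested members higher (8.0%) and 4 lower (16.0%), with a median of 0.003. Processing and trypsin-like proteases had 2 of 16 higher and 2 lower (12.5% each way), near the shares of all genes.

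**Figure D3:**
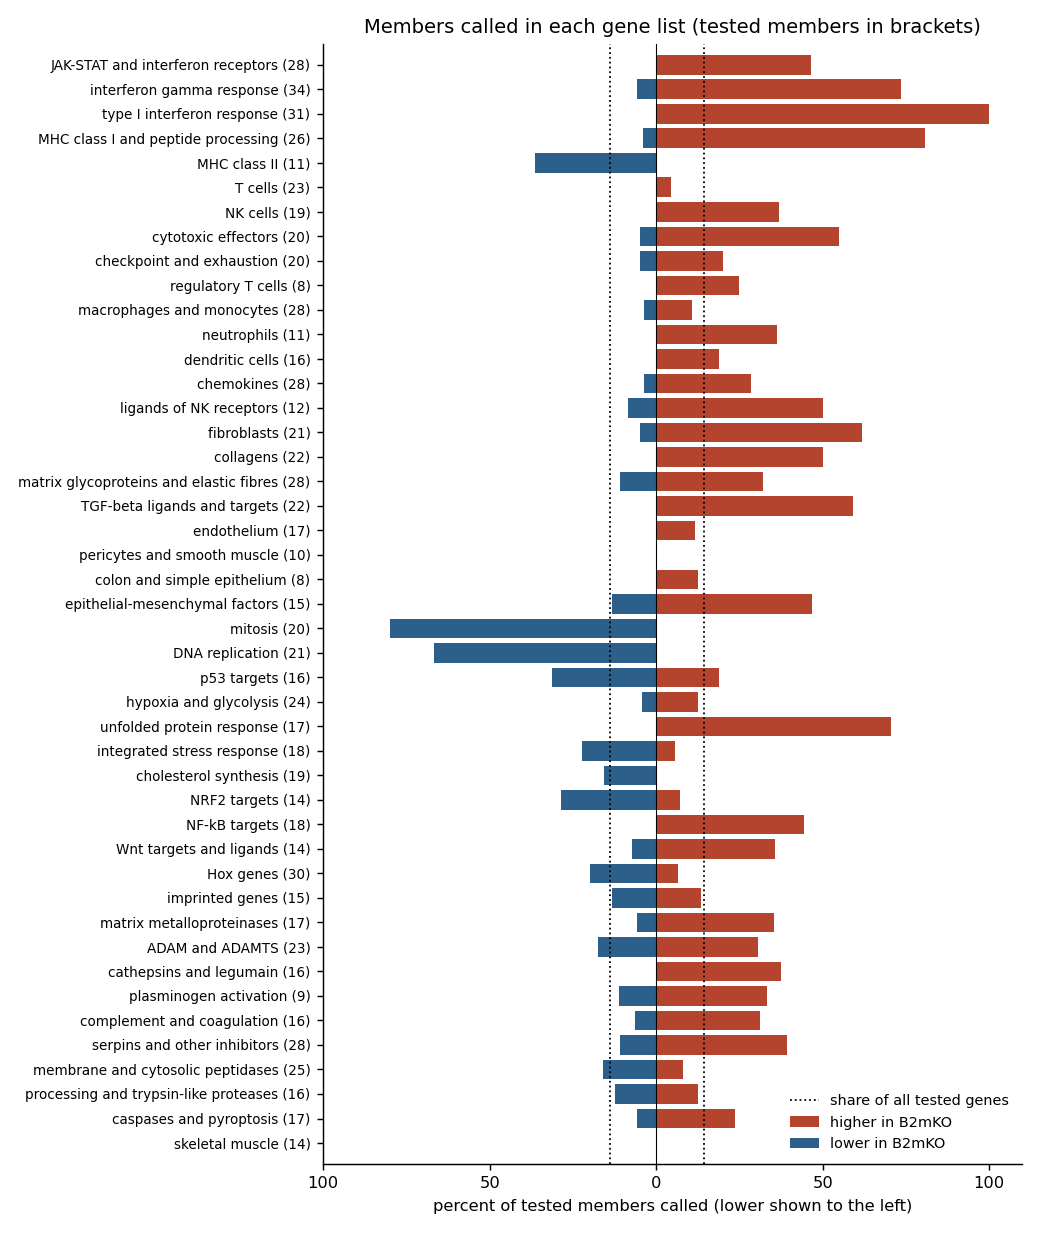
For each of the 45 lists with at least 8 tested members, the percent of tested members called higher in B2mKO (red, to the right) and lower (blue, to the left); dotted lines mark 14.3% and 13.8%, the shares over all tested genes. The interferon, class I, fibroblast and unfolded protein bars reach far to the right and the mitosis and DNA replication bars far to the left.

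Growth-related genes were lower in B2mKO. Of 20 mitosis genes 16 were lower and none higher (median -0.46), and of 21 DNA replication genes 14 were lower and none higher (-0.50). Kif11, a spindle motor, stood at 129, 132, 169.7, 131 and 150.2 CPM in B2mKO and 255, 218, 220.5, 221 and 229.9 CPM in Jak1KO, with no overlap and a difference of -0.68 ± 0.09 (adjusted p = 1.86e-06). Mcm3, a subunit of the replicative helicase, stood at 119, 113, 153, 123 and 176 CPM in B2mKO and 232, 203, 202, 211 and 239 CPM in Jak1KO (-0.67 ± 0.12, adjusted p = 9.84e-05). The summed mitosis list was highest within B2mKO in replicates 3 and 5, the libraries lowest in the fibroblast sum. Genes of the unfolded protein response were higher, 12 of 17 with none lower (median 0.46), and the chaperone cofactor Dnajc3 (0.91 ± 0.08) and Edem1, which directs misfolded glycoproteins to degradation (0.76 ± 0.07), had the smallest p. The serine synthesis enzyme Psat1 (-1.01 ± 0.19) was among 4 lower genes of 18 in the integrated stress response. Of 15 imprinted genes 2 were higher and 2 lower (13.3% each way), close to the shares of all genes. Among them, the non-coding H19 stood at 3879.6, 3837, 3276, 3823 and 3103 CPM in B2mKO and 1151, 1444, 1344, 1369 and 1186 CPM in Jak1KO (1.46 ± 0.22), and the zinc finger gene Peg3 at 1.09, 1.6, 1.08, 1.19 and 1.56 CPM in B2mKO and 11.2, 11, 11.8, 9.88 and 10.5 CPM in Jak1KO (-3.05 ± 0.43). Of the 8 higher NF-kB targets among 18, Bcl3 (1.99 ± 0.17) and the adhesion molecule Vcam1 (1.39 ± 0.12) are shown here as examples. Of 14 Wnt targets and ligands, 5 were higher (35.7%) and 1 lower (7.14%), with a median of 0.33. The ligand Wnt6 had the largest rise of that list, 3.87 ± 0.41.

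Some genes separated the knockouts almost completely. Among called genes that reached a mean of 5 CPM, the largest rises were in Vstm5, a membrane protein of neurons, at 9.39, 9.59, 11.6, 8.98 and 13.4 CPM in B2mKO and 0.109, 0, 0.0941, 0 and 0 CPM in Jak1KO (7.91 ± 0.57, adjusted p = 2.86e-11), then Olfr810 (6.08 ± 0.60), the glycine receptor subunit Glrb (5.98 ± 0.40), Tex13b (5.53 ± 0.52), the bicarbonate transporter Slc4a5 (5.40 ± 0.28) and Cdh19 (4.82 ± 0.34). The largest falls with counts in both groups were Fndc3c1 at 0, 0, 0.141, 0.238 and 0.0472 CPM in B2mKO and 8.92, 8.34, 6.96, 7.06 and 9.58 CPM in Jak1KO (-6.40 ± 0.47), the zinc finger gene Bnc1 (-5.34 ± 0.44), the thyroid hormone deiodinase Dio2 at 1.43, 0.907, 1.36, 1.23 and 1.23 CPM in B2mKO and 16.7, 27.8, 20.9, 17.5 and 16.9 CPM in Jak1KO (-4.02 ± 0.22) and the natriuretic peptide clearance receptor Npr3 (-3.68 ± 0.25). Olfr139, annotated as an olfactory receptor, had 0 counts in all 5 B2mKO libraries and 779 counts in Jak1KO (6.89, 7.59, 8.42, 7.39 and 6.78 CPM), at least 268-fold higher in Jak1KO against a floor of 3 counts over the group. The serine protease gene Tmprss11g (0 against 524 counts, at least 182-fold) and Ptprn2, a receptor-type phosphatase family member (0 against 332, at least 114-fold), were also without a count in B2mKO. Olfr139 and Zfp616, a zinc finger gene with 0 against 131 counts, are neighbours on chromosome 11 (74044033 to 74056551 and 74069955 to 74087292, GRCm38), and no other gene within 100 kb of either passed 0.5 CPM in any of the IgG1 groups. Conversely Strc, the gene of the hair-bundle protein stereocilin, had 1 count in Jak1KO against 433 in B2mKO, a ratio of 419 with a 95% counting interval of 74.8 to 16588. In the aPD1 libraries, 5 of the 6 genes near 0 in B2mKO and 3 of the 5 near 0 in Jak1KO again had at most 3 counts.

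Differences were uneven along the genome. On chromosome 3, 30.0% of tested genes were higher in B2mKO and 4.80% lower (median 0.27), and on chromosome 6 the shares were 30.4% and 2.58% (0.25). Chromosome 4 had 25.9% higher and 7.63% lower (0.17), and chromosome 18 had 24.4% and 6.36% (0.17). Chromosome 19 was the reverse, with 5.48% higher and 36.9% lower (-0.30), followed by chromosome 15 with 9.56% and 27.7% (-0.19). The medians in the aPD1 libraries, which are separate samples, were 0.25, 0.27, 0.17, 0.12, -0.28 and -0.21 in the same order. Shifts were also uneven within chromosomes. Windows of 40 consecutive tested genes on chromosome 4 had medians from -0.19 to 0.50. On chromosome 12, with a median of -0.09, the windows from 85599027 to 112649149 had medians from -0.32 to -0.23. Gene lists and chromosomes cross. Kif11, Psat1 and Cst6 lie on chromosome 19 and Gbp3, Ifi44 and Postn on chromosome 3, and each moved in the direction of its chromosome's median. Ifit1 lies on chromosome 19 too and went the other way, higher by 3.35 ± 0.23. The window there from 32122727 to 37440731 held 12 higher and 13 lower genes. The part of position in any list's count was not tested.

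**Figure D4:**
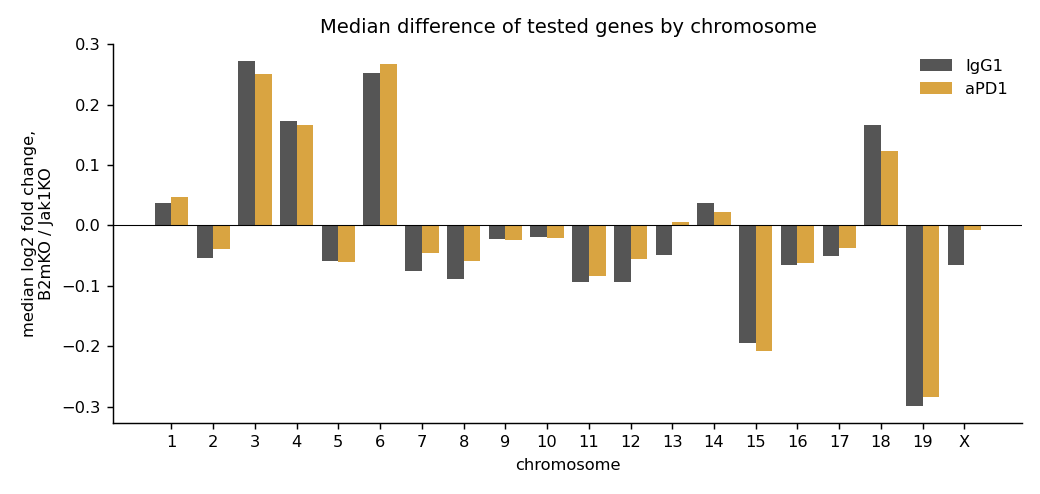
Median log2 fold change of B2mKO over Jak1KO over the tested genes of each chromosome, with IgG1 (dark bars) and aPD1 (yellow bars). Chromosomes 3 and 6 stand highest and chromosome 19 lowest in both antibody groups.

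Against the WT tumours with IgG1, values of both knockouts are given only side by side, since both comparisons share the same 5 WT libraries. For the type I interferon list the median log2 fold change was 0.91 in B2mKO and -1.47 in Jak1KO, and for the interferon gamma list 0.13 and -1.20. For the class I list it was 0.11 and -0.53. Cytotoxic effector genes stood at 1.44 and -0.32, fibroblast genes at 1.00 and -0.06, and DNA replication genes at -0.52 and 0.04. Other lists lay on one side of WT in both knockouts, among them NK cell genes at 1.43 and 0.69, T cell genes at 0.92 and 1.33 and cholesterol synthesis genes at -0.63 and -0.42. For single genes, Ifi44 was 1.44 ± 0.29 in B2mKO and -3.30 ± 0.32 in Jak1KO, Gbp3 was 0.94 ± 0.25 and -2.40 ± 0.27, H2-K1 was 0.22 ± 0.18 and -1.15 ± 0.18, and Prf1 was 3.38 ± 0.59 and 0.28 ± 0.58. B2m was lower than in WT in both, at -2.32 ± 0.19 and -1.36 ± 0.19.

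**Figure D5:**
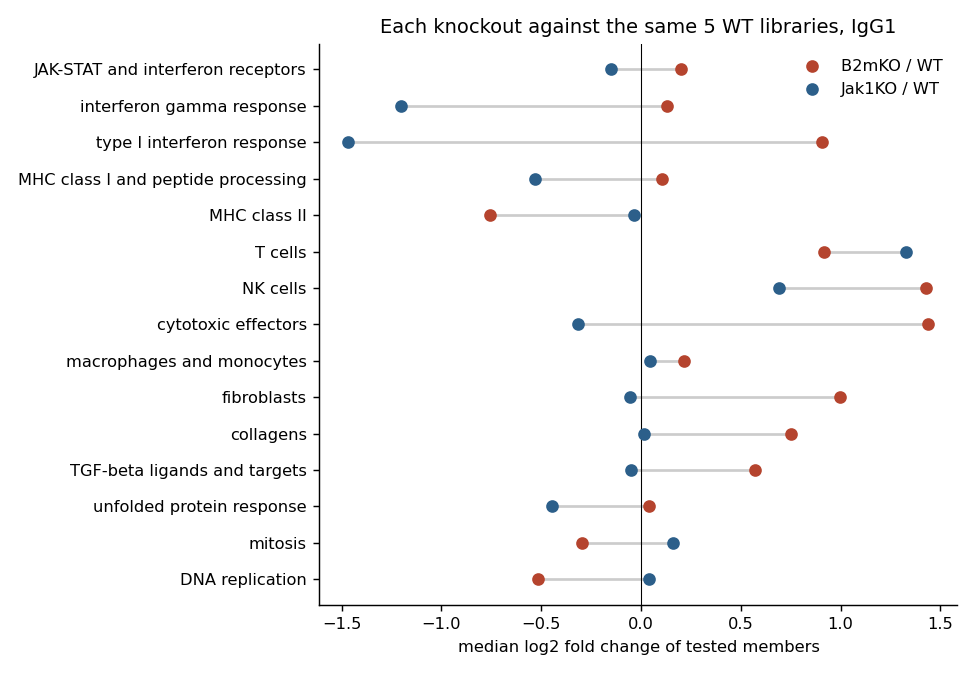
Median log2 fold change of the tested members of 15 lists in B2mKO (red) and Jak1KO (blue), each against the same 5 WT libraries with IgG1. The interferon lists lie left of 0 in Jak1KO, and the fibroblast, collagen and cytotoxic lists lie right of 0 in B2mKO.

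With aPD1 in place of IgG1, 4361 genes differed between the knockouts (28.1%), 3252 of them also called with IgG1 and in the same direction, which is 74.6% of either set. Of the genes called with IgG1, 99.3% had the same sign with aPD1, against 81.1% of all tested genes. A test of the difference itself, whether the effect of aPD1 differed between the knockouts, called 0 genes (0%) with edgeR, with 292 at an unadjusted p under 0.05 and a smallest adjusted p of 0.995. DESeq2 and limma voom also called 0, with 332 and 274 at an unadjusted p under 0.05. Each of these counts is a smaller share of the tested genes than the 0.05 expected if no gene differed. B2mKO replicate 2 with aPD1, one of the 2 libraries that stand apart, is part of this test. The 0 calls do not show that the effects of aPD1 are equal.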

How the data were processed

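Messenger RNA was measured, per the labels, by RNA-seq in 30 tumour libraries, of which the 10 compared and the 5 WT libraries with IgG1 and 10 aPD1 libraries of both knockouts gave values. The authors deposited counts per gene, made with featureCounts 2.0.0 on Ensembl release 99 gene models of GRCm38 per the file headers. The recorded command has no option for strand, read pairs or multi-mapping reads, so reads shared by near-identical genes were not counted and antisense genes cannot be told apart. FastQC 0.11.2, STAR 2.5.2a, Cufflinks 2.2.1 and edgeR 3.24.3 are named in the submitters' processing notes.

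Counts were fitted here with edgeR 4.0.16 (R 4.3.3): filterByExpr with a minimum count of 10 and a total of 15, TMM scaling, 6 group means over all 30 libraries, a quasi-likelihood test, and Benjamini-Hochberg adjustment with a threshold of 0.05. CPM were computed with the TMM factors (0.939 to 1.043 over all libraries). Alternatives were RLE scaling, DESeq2 1.42.0, limma voom 3.58.1, no filter, fewer libraries, a replicate block and leaving out each library. No replicates looked like 1 library deposited again: the smallest chi-square of any pair was 8.61 times its degrees of freedom. On simulated data with 200 changed genes for this comparison, run on 15340 genes, 56.7% of 1.5-fold, 71.6% of 2-fold and 89.4% of 4-fold changes were recovered. Of 152 calls there, 7 were false. In the data 4362 genes were called, and the adjustment depends on that number, so the recovered shares are not the sensitivity of this comparison. Counting intervals and floors cover counting error only.

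Members and the 52 gene lists were chosen with earlier results of these data known. Genes were named by rule: the targeted genes, the 12 largest rises and falls with at least 5 CPM and no overlap, the 4 smallest p per list, genes near 0 in one knockout, and genes that define a list. Some further list members (Gbp2b, Ifng, Eln, Mfap2, Loxl1, Emilin1, Fbn1, Fbn2, Plk2, Bax, Fn1, Isg15, Rsad2, Irf7, Gzmb, Cd274) were named after their values were seen, and not every gene the rule gives is described. Pdcd1, Lag3, Tigit, Havcr2 and Ctla4 were also named after their values were seen. Identifiers without a symbol (327, 0.047% of counts) kept their identifier.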

Additional observations from a re-analysis of the deposited data

Results flagged for a closer look

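Of 96 groups of 5 libraries examined (the targeted genes, the largest changes and the summed marker lists), 5 held a library far from the other 4, where chance flags about 1 group in 20. The number flagged was thus close to the number expected by chance. The gap to the nearest other library exceeded 0.71 of the group's range in each. Skeletal muscle markers summed to 330.3 CPM in B2mKO replicate 5 and 216.2 CPM in Jak1KO replicate 3, against at most 10.0 CPM in the others, so 1 library of each group carries them. Lama2, a laminin chain of muscle and other basement membranes, was at 30.8 CPM in Jak1KO replicate 2, where the others were between 4.65 and 10.5 CPM. It was also high in B2mKO replicate 5, at 2.31 CPM against at most 1.25 CPM. Olfr810 was at 0.300 CPM in Jak1KO replicate 2 and between 0.0941 and 0.138 CPM in the others of that group, all near the floor of the counts.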

How the results depend on the processing

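The count of genes higher in B2mKO was 3392 without the 2 libraries that stand apart, against 2217, and 3078 with only the 10 libraries compared; the cause was not tested. Leaving out single libraries gave 1871 to 2226 higher and 1733 to 2112 lower genes. With a replicate block the counts were 2142 and 2092. Same-numbered libraries correlated above 0.1 in 1 of 5 pairs, and so few pairs cannot settle whether the numbers pair the samples. No called gene among those named changed direction in any of these alternatives. Of 198 named genes called, 182 kept the call in every alternative, and those that lost it included H2-Aa, H2-Eb1, Cd74, Ciita, Cfd and Emcn; counts under other alternatives for the interferon gamma, cytotoxic, T cell and mast cell lists stand beside those lists. B2m ranged from -1.04 to -0.90 and Jak1 from 2.05 to 2.11 when single libraries were left out. Of 1768 list counts over the alternatives, 179 moved over 1.5 times, mostly from counts of a few genes. Depth limits genes under about 1 CPM, where 3 counts over 5 libraries correspond to about 0.03 CPM.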

Other observations

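Some lists not described above are given here by their counts. Among 28 serpins and other protease inhibitors, 11 were higher in B2mKO (7 without B2mKO replicate 2) and 3 lower, with the membrane-bound metalloproteinase inhibitor Reck higher by 1.00 on the log2 scale. Of 15 epithelial-mesenchymal factors, 7 were higher and 2 lower: Twist1 was higher by 0.90 and Snai1 by 0.79, while Snai2 was lower, at -0.92. Hox genes had 2 higher and 6 lower of 30 and a median of 0.16, with Hoxc10 at -0.65 and Hoxb13, a posterior Hox gene, at 1.33. Of 16 p53 targets, 3 were higher and 5 lower, with a median of 0.03: the death receptor Tnfrsf10b (0.97) and Phlda3 (0.99) were among the higher ones, and the mitotic gene Gtse1 (-0.60), the kinase gene Plk2 (-0.55) and the apoptosis gene Bax (-0.38) among the lower ones. Adipocyte genes gave 3 lower of 7, a count that ran from 1 to 6 when single libraries were left out.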
